A study of Mus musculus with 22 samples.

Results

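The epithelial alarmins are the cytokines that barrier cells release when they are injured or meet an allergen. Their 3 ligand genes, Il33, Tslp and Il25, and the 3 genes of the receptor chains that recognise them, Il1rl1, Crlf2 and Il17rb, were followed by name in lung RNA of BALB/c mice, an inbred strain often used for allergic airway models. They are 6 of 20938 rows in the gene table and 12 of 36844 rows in the transcript table. The 22 libraries, labelled as biological replicates, form 6 groups. All animals, controls included, were described as sensitized, with an injection into the peritoneum on day 49 of life and a booster on day 63, and aerosols began on day 70. The agent injected is not given in the sources used here. In the short protocol, ovalbumin (OVA, 4 libraries), methacholine (MCh, 4 libraries) or phosphate-buffered saline (PBS, 3 libraries) was given on 3 consecutive days. In the long protocol, OVA (4 libraries), MCh (4 libraries) or PBS (3 libraries) was given 3 times a week for 4 weeks. Methacholine makes airway smooth muscle contract without being an allergen. The labels disagree on several points: sample titles give 4 days for short MCh and call the PBS and MCh animals normal, and the series text names trachea while each sample names lung. The 6 cartilage markers of a trachea summed to 0.0151 to 0.0994 FPKM in short OVA, 0 to 1.11 in short MCh, 0 to 0.0816 in short PBS and at most 0.0914 in the long groups, whereas the alveolar gene Sftpc stood at 4592 FPKM or more in every group, so the tissue is called lung.

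IL-33 is kept in the nucleus of epithelial cells and stromal cells and is set free when they are damaged. It binds ST2, the product of Il1rl1, which pairs with the accessory chain of Il1rap and signals through the adaptor of Myd88. A shorter Il1rl1 product without a membrane anchor acts as a decoy. TSLP, made by epithelial cells, binds the chain of Crlf2 paired with the chain of Il7r and signals through JAK kinases and STAT5. IL-25, in mice a product of tuft cells, binds the chain of Il17rb paired with that of Il17ra. Group 2 innate lymphoid cells, Th2 cells and mast cells carry these receptors and respond with IL-5 and IL-13.

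Il33 and Il1rl1 are each transcribed from more than 1 start, and the 250 bases before each start are shown because the deposited transcripts differ in their start. On mm10/GRCm38, Il33 lies at chr19:29925114-29960718 on the plus strand and Il1rl1 at chr1:40429570-40465415 on the plus strand. Their starts are 20677 and 10059 bases apart in the RefSeq promoter table (GRCm38.p6). Capitals mark the matches to 4 motifs searched on both strands. The motif of GATA factors was searched as AGATAA. The motif of STAT6 was searched as TTC, then any 4 bases, then GAA. The motif of AP-1 was searched as TGANTCA. The box that positions the polymerase was searched as TATAAA, the TATA letters.
Il33 upstream start, chr19:29924863-29925112: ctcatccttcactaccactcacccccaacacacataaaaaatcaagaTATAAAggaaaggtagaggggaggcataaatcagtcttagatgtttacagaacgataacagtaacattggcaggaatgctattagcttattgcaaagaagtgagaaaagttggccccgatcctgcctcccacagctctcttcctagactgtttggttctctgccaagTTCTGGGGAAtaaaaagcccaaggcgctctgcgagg
Il33 internal start, chr19:29945540-29945789: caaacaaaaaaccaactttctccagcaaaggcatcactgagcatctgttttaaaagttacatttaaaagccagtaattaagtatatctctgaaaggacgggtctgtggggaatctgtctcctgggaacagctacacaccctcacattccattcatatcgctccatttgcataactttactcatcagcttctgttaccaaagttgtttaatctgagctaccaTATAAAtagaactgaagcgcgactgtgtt
Il1rl1 upstream start, chr1:40429320-40429569: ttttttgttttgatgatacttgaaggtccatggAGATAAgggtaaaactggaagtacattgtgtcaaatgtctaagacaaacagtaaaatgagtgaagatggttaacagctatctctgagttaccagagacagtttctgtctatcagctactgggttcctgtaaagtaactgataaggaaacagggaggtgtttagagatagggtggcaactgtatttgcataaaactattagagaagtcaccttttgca
Il1rl1 downstream start, chr1:40439379-40439628: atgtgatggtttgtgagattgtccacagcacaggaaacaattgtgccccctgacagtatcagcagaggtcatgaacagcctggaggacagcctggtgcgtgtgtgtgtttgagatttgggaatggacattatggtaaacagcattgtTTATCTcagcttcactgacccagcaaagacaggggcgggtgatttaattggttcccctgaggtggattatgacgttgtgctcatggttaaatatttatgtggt

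Before the upstream start of Il33 the STAT6 letters lay at -36 to -27 and the TATA letters at -203 to -198, counted from the start. The internal start had TATA letters at -29 to -24. Each Il1rl1 window held the GATA letters, at -217 to -212 before the upstream start and at -103 to -98 before the downstream one. Of 32851 promoter windows of the same length, 9.99% held the GATA letters, 5.85% the STAT6 letters, 6.75% the AP-1 letters and 12.4% the TATA letters. No match overlapped another in these 4 windows. GC content was 45.2% and 39.6% in the Il33 windows and 37.6% and 46.4% in the Il1rl1 windows, against a median of 52.4% over all windows.

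Values are FPKM, fragments scaled to transcript length in kilobases and to sequencing depth. Differences are differences of group means of log2(FPKM + 0.5), fitted with limma, and understate the change of genes near 0. A gene passed at a Benjamini-Hochberg adjusted p under 0.05 over the 15682 genes with at least 0.1 FPKM in at least 3 libraries. From the spacing of low values, 1 FPKM was estimated to stand for 15.25 to 25.45 fragments per kilobase, a rough figure, since only 42.7% to 60.3% of low values lay within 0.1 of a whole number where chance gives 20%. Il33 then rested on 1559 to 14646 fragments per library, Il1rl1 on 77.0 to 769, Crlf2 on 127 to 431, Tslp on 0.585 to 254 and Il17rb on 2.46 to 83.6. Of the libraries, 3 were sparse, with 34.3% (long MCh library a), 33.8% (long MCh library c) and 28.3% (short MCh library 1) of genes at 0, against 22.5% to 25.3% in the others. These and short MCh library 4 had limma array weights under 0.25. The columns of the long OVA and long MCh groups carry numbers that the labels do not, so their libraries are called a to d in column order, which is only a name.

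Compared per length in the transcript table, Il33 was far more abundant than the other ligands. Its transcripts summed to 232 ± 38.7 FPKM in short OVA (SD, n = 4) and 34.9 ± 1.49 FPKM in short PBS (n = 3). Tslp stood at 4.81 ± 1.05 FPKM in short OVA and 5.56 ± 0.227 FPKM in short PBS. Il25 was listed at 0 in all libraries of both groups. Among the receptors Crlf2 had the highest transcript sum in all 6 groups, with 12.8 ± 2.20 FPKM in short OVA and 7.84 ± 0.338 FPKM in short PBS. Il1rl1 followed with 7.17 ± 0.496 and 1.45 ± 0.321 FPKM, and Il17rb with 1.49 ± 0.435 and 0.625 ± 0.0574 FPKM, in short OVA and short PBS each time. The gene table gave 1.82 to 1.83 times the transcript sum for Il33, 1.56 to 1.97 times for Il1rl1, 0.658 to 0.684 times for Crlf2 and 0.251 times for Il17rb. What sets these factors is not given in the sources used here. The order of the receptors depends on them: in the gene table Il1rl1, at 12.9 FPKM, was above Crlf2, at 8.49 FPKM, in short OVA. The ratio of FPKM between groups is nearly the same in both tables for Il33, Tslp and Il17rb, while a fixed pseudocount weighs on them differently. All values below are from the gene table unless transcripts are named.

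**Figure D1:**
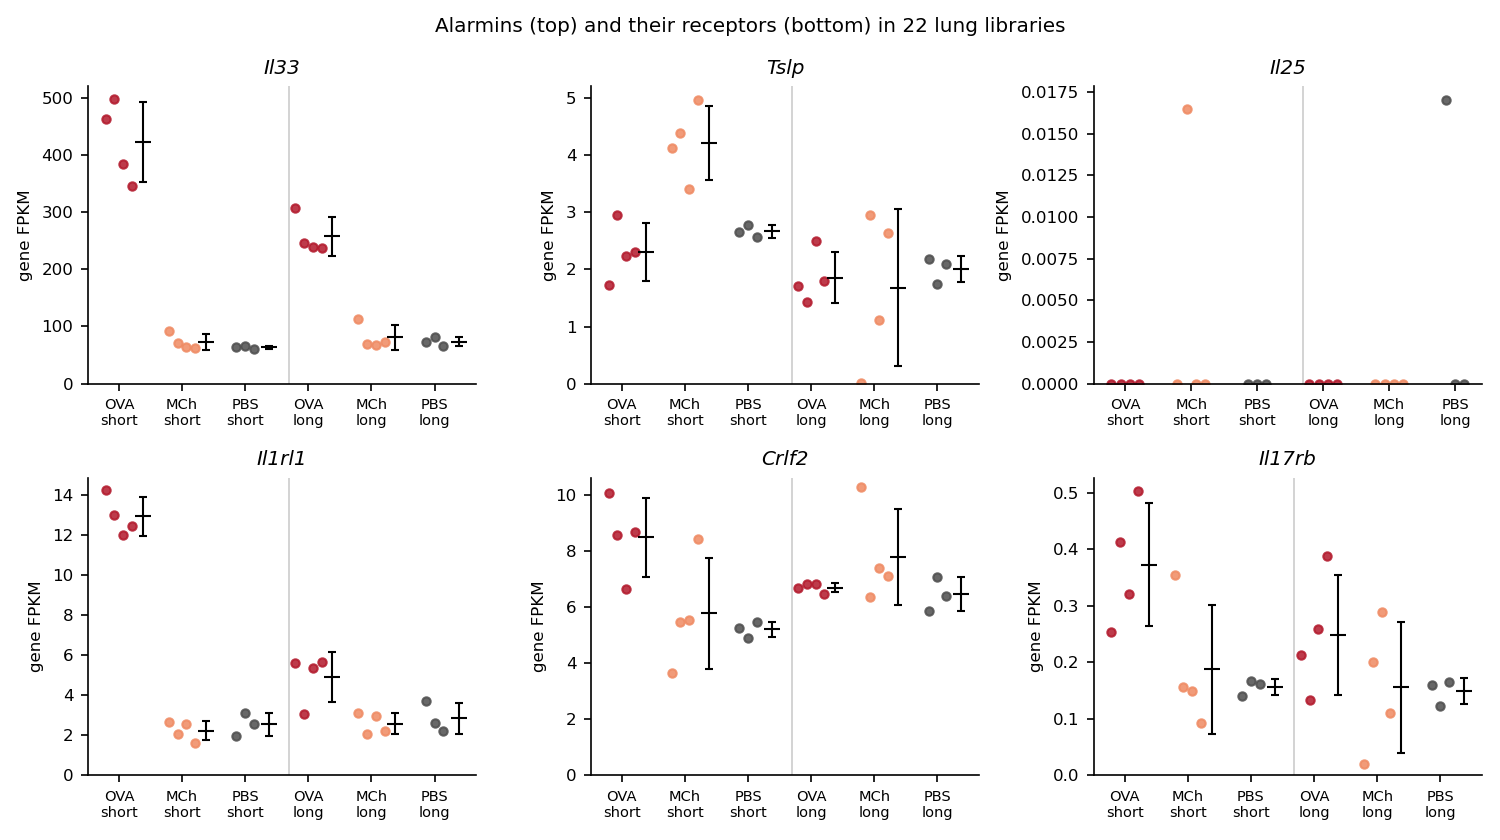
Gene FPKM of each library (points, linear axes from 0) for the ligands above and the receptors below, by group, with the group mean and SD as bars beside the points (none for Il25). The 4 short OVA libraries of Il33 sit at 346 to 499 FPKM and those of Il1rl1 at 12.0 to 14.3, above every library of the other groups, while Il25 is at 0 in 20 of 22 libraries.

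Il33 rose with OVA in both protocols. In the short protocol it stood at 463, 499, 385 and 346 FPKM in the OVA libraries, against 63.2, 66.6 and 61.0 FPKM in the PBS libraries. The groups lay far apart, and the difference was 2.71 ± 0.17 on the log2 scale (SE; 6.55-fold; limma adjusted p = 1.57e-09), the 107th highest difference of the 15682 genes. In the long protocol it stood at 308, 246, 238 and 238 FPKM in the OVA libraries, against 72.8, 81.1 and 65.7 FPKM in the PBS libraries. Again every OVA library was above every PBS library, with a difference of 1.80 ± 0.17 (3.49-fold; limma adjusted p = 7.18e-06), the 63rd highest. Of all genes tested, 23.2% had OVA above PBS without overlap in the short protocol and 9.95% in the long one. In bulk tissue, more cells that make a transcript and more transcript per cell cannot be told apart. Alveolar type 2 cells make IL-33 in the mouse lung. Of their 11 markers 3 rose and 4 fell with OVA in the short protocol, where 24.2% of all genes passed and 12.4% were higher. The surfactant protein genes Sftpd (1.27 ± 0.15) and Sftpb (-0.93 ± 0.14) were among the markers that passed. The 11 markers summed to 20906 to 22434 FPKM in short OVA, against 15481 to 17227 FPKM in short PBS. With long OVA 0 of the 11 passed, where 1.18% of all genes did. The 11 markers summed to 15242 to 17651 FPKM in long OVA, against 14250 to 14933 FPKM in long PBS. The part of these cells in the change of Il33 was not tested.

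The 6 groups ordered as short OVA, long OVA, long MCh, long PBS, short MCh and short PBS by mean Il33. Only the first 2 steps of that order were between groups that did not overlap: short OVA at 423 ± 70.3 FPKM, long OVA at 258 ± 33.8 FPKM and long MCh at 80.9 ± 21.7 FPKM. Of all genes, 9.6% had long OVA above long MCh without overlap, while the share for short above long OVA was not counted. The OVA difference in the long protocol minus that in the short one was -0.91 ± 0.24, which did not pass (limma adjusted p = 0.0639). Adjusted p ran from 0.00024 to 0.237 over the 27 alternatives and was under the threshold with the 3 sparse libraries dropped (0.00537), with the 4 low-weight libraries dropped (0.00114), with array weights (0.00024), with the OVA and PBS groups of both protocols fitted by themselves (0.00267) and without long OVA library a (0.0438). That library, at 308 FPKM, stands above the other long OVA libraries. Of all genes, 1036 of 15645 passed this comparison without the sparse libraries and 4810 of 15629 without the low-weight ones. With array weights 4893 of 15682 did, against 295 of 15682 with the main settings.

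Nearly all Il33 signal was assigned to the transcript from the upstream start, NM_133775, at 88.9% to 100% of the transcript sum in each library. It stood at 253, 272, 208 and 188 FPKM in short OVA, against 34.1, 32.4 and 33.0 FPKM in short PBS. With long exposure it stood at 167, 132, 130 and 129 FPKM in OVA, against 36.6, 42.9 and 35.2 FPKM in PBS. It rose by 2.76 ± 0.18 (limma adjusted p = 7.2e-09 over 26492 transcripts) in the short and by 1.85 ± 0.18 (2.47e-05) in the long protocol. Of all transcripts tested, 9.28% and 0.366% passed in these comparisons.

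The internal-start transcript, NM_001164724, codes for the same number of codons, 266, and stayed low everywhere. It stood at 1.49, 0.493, 0.495 and 0.355 FPKM in short OVA, against 0.351, 1.91 and 0.330 FPKM in short PBS. With long exposure it stood at 0.345, 1.80, 0.800 and 1.14 FPKM in OVA, against 3.38, 0.307 and 0.321 FPKM in PBS. These groups overlap in both protocols. The log2 ratio of the upstream-start to the internal-start transcript was higher in OVA than in PBS by 2.31 over both protocols (exact permutation test within protocol, two-sided, p = 0.000816, the smallest that the 1225 splits can give; adjusted over 6 such tests, 0.0049). It was 2.83 in the short protocol and 1.79 in the long one, each at p = 0.0286 (exact permutation test), the smallest possible with 35 splits. The denominator is near 0, so the ratio follows the upstream-start transcript. With MCh the ratio differed from PBS by 0.71 (exact permutation p = 0.278). Another transcript, NM_001360725, stood at 0 to 2.53 FPKM.

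**Figure D2:**
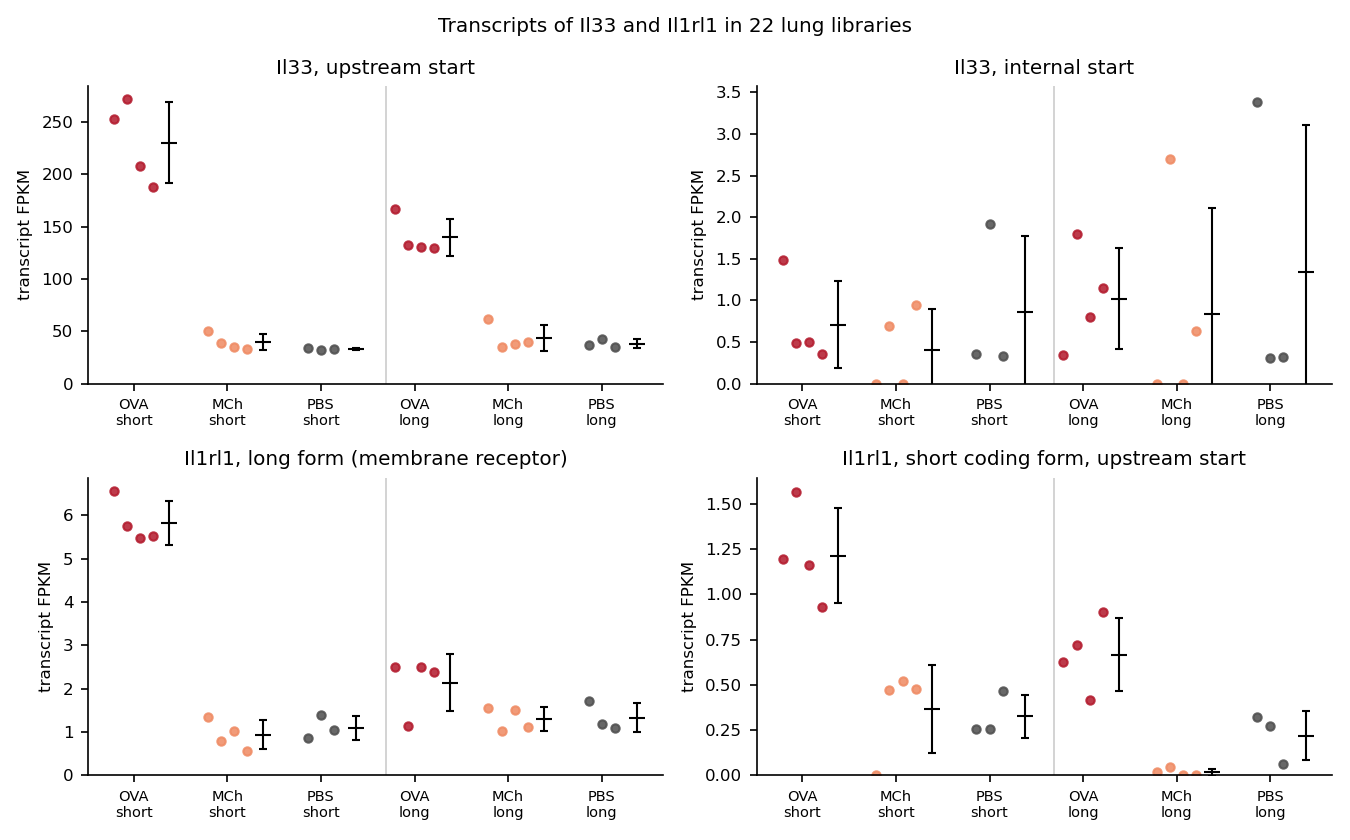
Transcript FPKM of each library (points, linear axes from 0) for 2 transcripts of Il33 and 2 of Il1rl1, by group, with the group mean and SD as bars beside the points. The upstream-start transcript of Il33 sits at 188 to 272 FPKM in short OVA and at 32.4 to 34.1 FPKM in short PBS, while the internal-start transcript stays at or under 3.38 FPKM in all groups.

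Tslp, on the plus strand at chr18:32815383-32819797, did not pass in any of the 9 comparisons. In the short protocol it stood at 1.73, 2.96, 2.23 and 2.31 FPKM with OVA, at 4.14, 4.39, 3.41 and 4.97 FPKM with MCh and at 2.66, 2.78 and 2.56 FPKM with PBS. All 4 MCh libraries were above every OVA and PBS library of that protocol, whereas OVA and PBS overlapped. The MCh difference from PBS was 0.57 ± 0.42 (limma adjusted p = 0.78), and 3.24% of all genes tested had MCh above PBS without overlap. The OVA difference from PBS was -0.19 ± 0.42 (limma adjusted p = 0.792). In the long protocol Tslp stood at 1.71, 1.43, 2.49 and 1.80 FPKM with OVA, at 0.0163, 2.96, 1.11 and 2.64 FPKM with MCh and at 2.18, 1.75 and 2.09 FPKM with PBS. The 2 lowest MCh values are those of the sparse libraries a and c, and the lowest stands for under 1 fragment. The MCh difference was -0.53 ± 0.42 (limma adjusted p = 0.533) and was 0.40 without the sparse libraries (adjusted p = 1), the opposite sign. The OVA difference from PBS was -0.11 ± 0.42 (limma adjusted p = 1), with a 95% interval of -0.97 to 0.76.

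Between OVA and MCh in the short protocol, Tslp was at -0.76 ± 0.39 (limma adjusted p = 0.211). Over 22 alternatives adjusted p ran from 0.000576 to 0.432. It was under the threshold, with Tslp lower in OVA, when the sparse libraries (0.00212) or the low-weight ones (0.00545) were dropped, with array weights (0.000576), with quantile normalization (0.0379), with a block for replicate number (0.00612) and with the short OVA and short MCh groups fitted by themselves (0.0235). Of all genes, 3942 of 15645 passed there without the sparse libraries and 7735 of 15629 without the low-weight ones. With array weights 8984 of 15682 did, against 2381 of 15682 with the main settings. Of all genes tested, 6.3% had OVA below MCh without overlap there.

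Il25, on the plus strand at chr14:54932695-54935837, was at 0 in 20 of 22 libraries. The exceptions were short MCh library 2 at 0.0165 FPKM and long PBS library 1 at 0.0170 FPKM, each worth about 1 fragment, so Il25 stayed under the filter and was not tested. Tuft cells, its known source, left little trace: Pou2f3, the factor that defines them, averaged 0.0339 ± 0.0301 FPKM in short OVA and 0.0351 ± 0.0146 FPKM in short PBS, and the channel gene Trpm5 averaged 0.0237 ± 0.0183 and 0.0238 ± 0.0252 FPKM in these groups. Of 10 tuft cell markers 4 were tested, and 1, the kinase gene Dclk1, which other cells also make, rose in the short protocol (1.43 ± 0.43, limma adjusted p = 0.0205). That count is near the 24.2% of all genes that passed there, with 12.4% higher. The 10 summed to 7.34 to 9.92 FPKM in short OVA, against 5.64 to 7.29 FPKM in short PBS, with Chat at 0 in every library of both. With long OVA 0 of the 4 passed, where 1.18% of all genes did. The sum was then 5.37 to 6.91 FPKM in OVA, against 4.75 to 5.98 FPKM in PBS.

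Il1rl1, the IL-33 receptor chain, rose with short OVA. It stood at 14.3, 13.0, 12.0 and 12.4 FPKM in the short OVA libraries, against 1.95, 3.11 and 2.53 FPKM in the short PBS libraries. The groups did not overlap, and the difference was 2.16 ± 0.22 (4.48-fold; limma adjusted p = 1.01e-06), the 176th highest of all genes. After long OVA it stood at 5.61, 3.03, 5.36 and 5.66 FPKM, against 3.72, 2.61 and 2.21 FPKM in long PBS. Here library b of the OVA group lay inside the PBS range, and the difference of 0.68 ± 0.22 did not pass (limma adjusted p = 0.22). Without that library it was 0.88 and passed (adjusted p = 0.0426), as it did with the low-weight libraries dropped (0.0422) and with array weights (0.00209). Over all 20 alternatives adjusted p ran from 0.00209 to 0.855. Of all genes, 1222 of 15629 passed without the low-weight libraries and 2047 of 15682 with array weights, against 185 of 15682 with the main settings.

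The OVA difference of Il1rl1 in the long protocol minus that in the short one was -1.48 ± 0.31 and passed (limma adjusted p = 0.0152). It was the 1 of 5 tested members to pass this interaction, which 1.88% of all genes passed and 1.42% in this direction. Adjusted p was 0.0576 without short PBS library 1 and 0.0667 without long PBS library 1. By mean level short OVA, at 12.9 ± 0.968 FPKM, was above long OVA, at 4.91 ± 1.26 FPKM, without overlap, and each later step in the order (long PBS, long MCh, short PBS, short MCh) was between groups that overlapped. The share of all genes with short OVA above long OVA without overlap was not counted.

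The receptor form with the full coding length of 567 codons, NM_001025602, made up 81.3% ± 2.70 of the Il1rl1 transcript sum in short OVA and 75.0% ± 5.28 in short PBS. It stood at 6.58, 5.76, 5.47 and 5.52 FPKM in short OVA, against 0.849, 1.38 and 1.03 FPKM in short PBS, and rose by 2.01 ± 0.28 (limma adjusted p = 0.000108). The form of 337 codons with the upstream start, NM_001294171, stood at 1.20, 1.57, 1.17 and 0.930 FPKM in short OVA, against 0.256, 0.254 and 0.463 FPKM in short PBS. It rose by 1.05 ± 0.25 (limma adjusted p = 0.00891), a value that the added 0.5 shrinks more than that of the full form. Neither form overlapped between these groups, a separation that was not counted over all transcripts.

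In long OVA the full form stood at 2.51, 1.14, 2.49 and 2.38 FPKM, against 1.71, 1.17 and 1.09 FPKM in long PBS, a difference of 0.50 ± 0.28 (limma adjusted p = 1). The short form stood at 0.627, 0.722, 0.413 and 0.903 FPKM in long OVA, against 0.321, 0.272 and 0.0626 FPKM in long PBS. It did not overlap between them, again not counted over all transcripts, and did not pass (0.70 ± 0.25, limma adjusted p = 0.492). In long MCh the short form was close to 0, at 0.0151, 0.0445, 0 and 0 FPKM, with the full form at 1.56, 1.01, 1.49 and 1.10 FPKM. The short form was the 1 Il1rl1 transcript to pass between long OVA and long MCh (1.16 ± 0.23, limma adjusted p = 0.0081), where 2.23% of all transcripts passed. Between short OVA and short MCh both forms passed, the full form at 2.18 ± 0.26 (limma adjusted p = 1.86e-05) and the short form at 1.03 ± 0.23 (0.00727), where 6.06% of all transcripts did.

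The log2 ratio of the full to the short form differed between OVA and PBS by 0.38 over both protocols (exact permutation test, p = 0.174), by 0.95 in the short protocol (p = 0.0286, the smallest possible) and by -0.20 in the long one (exact permutation p = 0.657). The short form stood at 0.254 to 0.463 FPKM in short PBS, under the 0.5 added, so the ratio leans on that setting. With 0.1 added the difference over both protocols was -0.017 (exact permutation p = 0.967). The interaction of OVA with protocol was -1.51 ± 0.40 for the full form and -0.35 ± 0.35 for the short form, and neither passed (limma adjusted p = 0.124 and 0.908), where 0.479% of all transcripts did. Of the 3 deposited transcripts none joins the upstream start to the full coding length, and the second 337-codon form, NM_010743, was at 0 to 0.492 FPKM, so reads in shared exons cannot say which start was used.

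Crlf2, the TSLP receptor chain, on the minus strand at chr5:109554709-109558993, stood at 10.1, 8.57, 6.66 and 8.67 FPKM in short OVA, against 5.24, 4.91 and 5.47 FPKM in short PBS. All OVA libraries were above all PBS libraries, and the difference was 0.64 ± 0.20 (1.56-fold; limma adjusted p = 0.0261). It did not pass once each library's trend with transcript length was removed (0.41, adjusted p = 0.131), with a block for replicate number (0.0838), or when any single library other than short OVA library 3 was left out (0.0532 to 0.0863). Crlf2 is among the fifth of genes with the shortest transcripts, of which 23.8% rose in short OVA, against 3.59% of the fifth with the longest, where Il1rl1 lies. With long exposure Crlf2 stood at 6.70, 6.83, 6.81 and 6.46 FPKM with OVA, against 5.88, 7.09 and 6.41 FPKM with PBS, groups that overlap (0.05 ± 0.20, limma adjusted p = 1). Of its deposited transcripts, NM_016715 and NM_001164735 match the same GENCODE transcript, so that the split between them is uncertain. Their log2 ratio differed from PBS by -0.61 with short OVA (exact permutation p = 0.6) and by 0.92 with long OVA (exact permutation p = 0.0286, the smallest possible), 0.15 over both protocols (exact permutation p = 0.825). With MCh it differed by -0.82 over both (exact permutation p = 0.529).

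Il17rb, the IL-25 receptor chain, on the minus strand at chr14:29996135-30008896, was low in all groups. It stood at 0.253, 0.414, 0.322 and 0.503 FPKM in short OVA, against 0.140, 0.168 and 0.162 FPKM in short PBS. The groups did not overlap, but the difference of 0.40 ± 0.15 did not pass (limma adjusted p = 0.0627). Adjusted p ran from 0.0042 to 0.213 over 20 alternatives and was under the threshold with the sparse libraries (0.0112) or the low-weight ones (0.00835) dropped, with array weights (0.0042), with no filter on low values (0.0497) and with the short OVA and short PBS groups fitted by themselves (0.0291). Of all genes, 6736 of 15645 passed without the sparse libraries and 8468 of 15629 without the low-weight ones. With array weights 7994 of 15682 did, against 3790 of 15682 with the main settings. With a pseudocount of 0.1 the difference was 0.85 (adjusted p = 0.104), and on transcript sums it was 0.80 (0.0673). In long OVA it stood at 0.213, 0.133, 0.259 and 0.389 FPKM, against 0.160, 0.122 and 0.165 FPKM in long PBS, groups that overlap (0.20 ± 0.15, limma adjusted p = 1).

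In all, 3 of the 5 tested members, Il33, Il1rl1 and Crlf2, passed between short OVA and short PBS, each higher in OVA, where 24.2% of all genes passed and 12.4% were higher. Il33 was the 1 of 5 that passed between long OVA and long PBS, where 1.18% of all genes passed and 1.03% were higher. MCh against PBS gave 0 of 5 in either protocol by limma, also at an unadjusted p under 0.05, against 0.00638% of all genes in the short and 0.0638% in the long protocol. The interaction of MCh with protocol gave 0 of 5 and 0% of all genes. The OVA and MCh differences share the PBS libraries of their protocol. For Il33 the MCh differences were 0.17 ± 0.17 and 0.12 ± 0.17, with 95% intervals of -0.18 to 0.53 and -0.24 to 0.47. For Il1rl1 they were -0.15 ± 0.22 and -0.12 ± 0.22. Between long and short PBS 0 of 5 passed, also at an unadjusted p under 0.05, with Il33 at 0.20 ± 0.18 and Il1rl1 at 0.14 ± 0.24, where 0.166% of all genes passed.

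**Figure D3:**
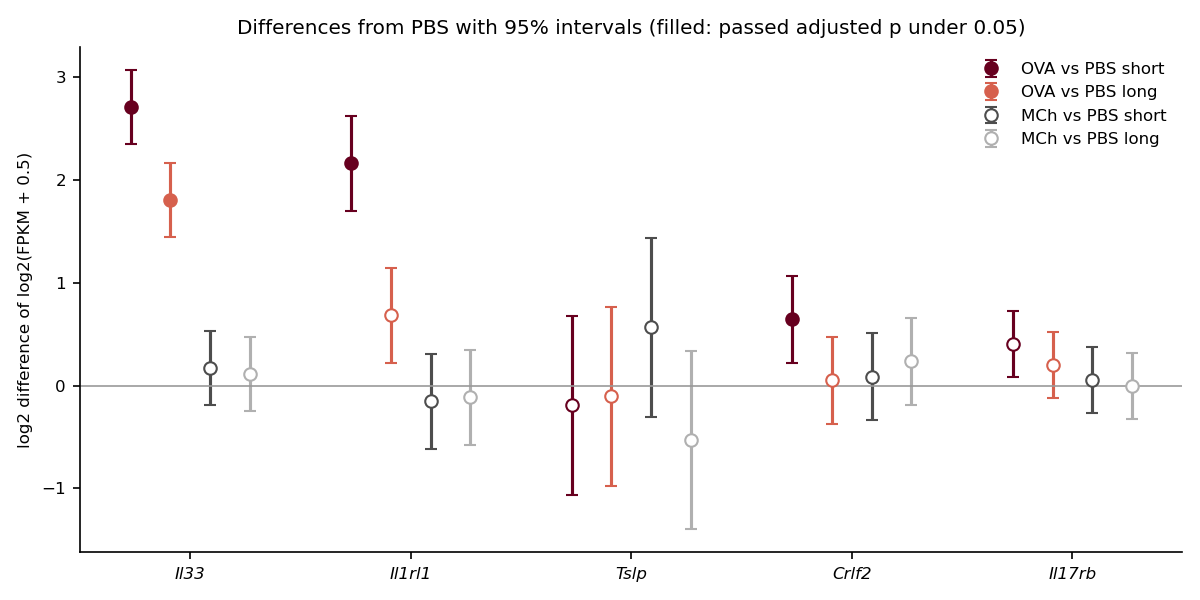
Differences from PBS in log2(FPKM + 0.5) with 95% intervals (points and bars) for the 5 tested members, 2 aerosols and 2 protocols; filled points passed a limma adjusted p under 0.05. Il33 is at 2.71 and 1.80 with OVA and at 0.17 and 0.12 with MCh, and the widest intervals are those of Tslp.

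Set directly against MCh, which shares the aerosol handling, OVA libraries gave much the same picture. In the short protocol Il33 differed by 2.54 ± 0.16, Il1rl1 by 2.32 ± 0.20 and Crlf2 by 0.56 ± 0.19 (limma adjusted p = 1.02e-09, 1.23e-07 and 0.0495), 3 of 5 members, where 15.2% of all genes passed and 9.37% were higher in OVA, and 11.8% had OVA above MCh without overlap. The short MCh libraries of Il33 were at 92.1, 71.6, 64.3 and 62.6 FPKM and those of Il1rl1 at 2.66, 2.08, 2.55 and 1.61 FPKM. Crlf2 stood at 3.63, 5.46, 5.55 and 8.45 FPKM in short MCh and overlapped OVA. Its adjusted p ran from 4.92e-05 to 0.176 over 22 alternatives and was over the threshold without short MCh library 1, 2 or 3, without short OVA library 1, 2 or 4 (0.101 to 0.176 over these), and with the 3 sparse libraries dropped (0.0605). The same held with a pseudocount of 0.1 (0.052), with no filter on low values (0.0536), with the replicate block (0.0604), with median-of-ratios scaling (0.0776), without the length trend (0.101), with quantile normalization (0.104) and with the short OVA and short MCh groups fitted by themselves (0.165). In the long comparison Il33 differed by 1.69 ± 0.16 and Il1rl1 by 0.80 ± 0.20 (limma adjusted p = 1.54e-06 and 0.0246), 2 of 5, where 6.06% of all genes passed and 4.75% were higher in OVA, and 9.6% had OVA above MCh without overlap. The long MCh libraries of Il33 were at 113, 69.1, 68.0 and 73.3 FPKM, all under the OVA libraries, and those of Il1rl1 at 3.09, 2.04, 2.94 and 2.20 FPKM. The Il1rl1 difference did not pass with quantile normalization (0.142), without the length trend (0.053), with the long OVA and long MCh groups fitted by themselves (0.172), or without long OVA library a, c or d (0.0729 to 0.0958). These comparisons use the same OVA libraries as those with PBS.

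None of the partner chains of the 3 receptors passed with OVA. Il1rap, the co-receptor of ST2, stood at 6.06 ± 0.414 FPKM in short OVA and 6.18 ± 0.661 FPKM in short PBS (-0.02 ± 0.15, limma adjusted p = 0.937). Il7r, the partner of Crlf2, stood at 10.9 ± 1.19 and 9.23 ± 5.51 FPKM, and Il17ra, the partner of Il17rb, at 14.8 ± 0.339 and 13.5 ± 3.87 FPKM. Of the 22 partner and signalling genes listed, 3 rose and 1 fell in short OVA, a share below the 24.2% of all genes that passed there, with a median difference of 0.0021 beside -0.06 over all genes. Risers were Myd88, the adaptor of ST2 (0.94 ± 0.21, adjusted p = 0.00347), Jak2, the kinase bound to the TSLP receptor (0.66 ± 0.12, 0.000602), and Il2rg, the common gamma chain (0.67 ± 0.16, 0.00432). Il2rg is not among the receptor and partner chains named above. Stat5b, a factor downstream of TSLP, fell by 0.55 ± 0.17 on the log2 scale (0.0224). Without the 3 sparse libraries the counts were 6 and 5, and with the length trend removed 4 and 0. Of all genes, 6736 of 15645 and 3383 of 15450 passed in these settings. In long OVA 0 of 22 passed, where 1.18% of all genes did, with Il7r nearest at 0.64 ± 0.34 (limma adjusted p = 0.782).

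Relatives of the ligands and receptors showed mixed changes, to be read beside the 24.2% of all genes that passed in short OVA and the 1.18% in long OVA. Of 10 tested IL-1 family genes, the family of IL-33, 4 rose and 1 fell in short OVA: the receptor antagonist Il1rn (2.85 ± 0.38), Il1b (2.51 ± 0.38), Il1a (1.13 ± 0.19) and the receptor Il1r1 (0.94 ± 0.26) were higher, and Il18 was at -1.02 ± 0.25. Il1rn was at 71.7 ± 22.8 FPKM in short OVA and 9.11 ± 1.20 FPKM in short PBS, and it alone of the 10 rose in long OVA (1.62 ± 0.38, limma adjusted p = 0.0409). Of 5 tested IL-17 family genes, 1, the receptor gene Il17rd, fell by 1.14 ± 0.27 in short OVA, and 0 passed in long OVA. Of 8 tested proteases known to cut IL-33, 1 rose and 1 fell in short OVA, with a median difference of 0.44, and 0 passed in long OVA. The short OVA counts of the IL-17 family and of these proteases were near the share of all genes. The one that fell was the calpain gene Capn2 (-0.66 ± 0.11, limma adjusted p = 0.000191). In long OVA the mast cell tryptase gene Tpsab1 stood at 2.24 ± 0.64 (limma adjusted p = 0.118).

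Type 2 effector genes, those that IL-33 and its fellow alarmins are known to raise, rose together in short OVA. Of 11 tested, 10 rose, where 24.2% of all genes passed and 12.4% were higher. Their median difference was 3.52 against -0.06 over all genes. The list was made with earlier results of these data known and is no independent evidence of direction. Il13 stood at 8.07 ± 2.81 FPKM in short OVA and at 0 in all 3 short PBS libraries, and Il5, the eosinophil growth factor, at 8.23 ± 2.18 and 0.136 ± 0.0590 FPKM. Arg1, an enzyme of alternatively activated macrophages, stood at 175 ± 49.7 and 0.832 ± 0.0771 FPKM. In long OVA 2 of 11 rose, Arg1 (3.64 ± 0.40) and the eosinophil attractant Ccl11 (3.05 ± 0.56), where 1.03% of all genes were higher. Il13 stood at 0.385 ± 0.225 FPKM in long OVA, against 0.0539 ± 0.0624 FPKM in long PBS (limma adjusted p = 0.321). The interaction with protocol passed for 6 of the 11, all smaller in the long protocol, where 1.88% of all genes passed and 1.42% in this direction. Among the 6 were Il5 (-3.67 ± 0.34), Il13 (-3.39 ± 0.32), Ccl24 (-4.52 ± 0.50) and Il4 (-2.63 ± 0.34). The corresponding value was -0.91 ± 0.24 for Il33 and -1.48 ± 0.31 for Il1rl1. The 4 long OVA libraries of Il33 all remained above 238 FPKM, whereas Il5 stood at 0.343 ± 0.306 FPKM in long OVA and 0.266 ± 0.121 FPKM in long PBS.

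**Figure D4:**
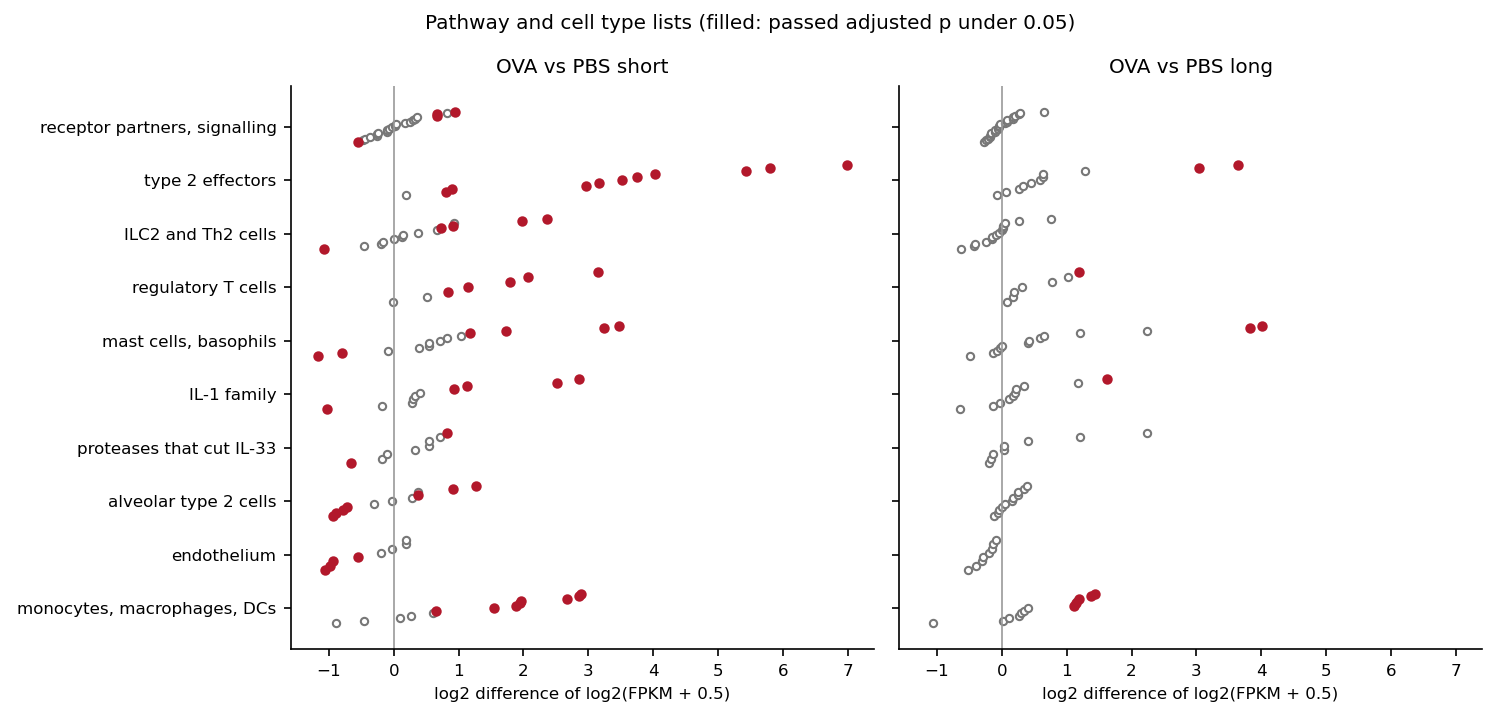
Differences of OVA from PBS in log2(FPKM + 0.5) for each tested gene of 10 lists (points), in the short protocol on the left and the long protocol on the right; filled points passed a limma adjusted p under 0.05. Type 2 effector genes reach 6.99 (Arg1) in the short protocol, where 10 of 11 passed, and 2 of 11 passed in the long one.

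Genes of cells known to carry ST2 were counted in the same way. The counts below are to be read beside the 24.2% of all genes that passed in short OVA and the 1.18% in long OVA. Of 14 genes of group 2 innate lymphoid and Th2 cells, 4 rose and 1 fell in short OVA, where 24.2% of all genes passed, with Il2ra (2.36 ± 0.47), Icos (1.97 ± 0.32) and Id2 (0.73 ± 0.15) higher and Rora at -1.08 ± 0.30. Gata3, which defines both cell types, stood at 2.07 ± 0.164 FPKM in short OVA and 2.39 ± 0.429 FPKM in short PBS. The 14 summed to 114 to 129 FPKM in short OVA, against 86.7 to 116 FPKM in short PBS, and to 80.9 to 89.9 FPKM in long OVA, against 80.6 to 98.2 FPKM in long PBS, where 0 passed. Of 7 regulatory T cell genes 5 rose in short OVA, led by Il10 (3.15 ± 0.23), Tnfrsf4 (2.07 ± 0.28) and Ctla4 (1.80 ± 0.29), and 1, Il10 (1.19 ± 0.23), in long OVA. They summed to 15.9 to 21.9 FPKM in short OVA, against 3.57 to 8.39 FPKM in short PBS, and to 6.46 to 9.56 FPKM in long OVA, against 5.06 to 5.50 FPKM in long PBS. Of 13 mast cell and basophil genes 4 rose and 2 fell in short OVA. The mucosal mast cell proteases Mcpt1 (3.25 ± 0.71) and Mcpt2 (3.47 ± 0.64) and the basophil protease Mcpt8 (1.74 ± 0.24) rose, and Gata2, which mast cells and other cells need, was at -1.17 ± 0.16. The 13 summed to 218 to 270 FPKM in short OVA, against 181 to 227 FPKM in short PBS, and to 240 to 347 FPKM in long OVA, against 220 to 248 FPKM in long PBS. In long OVA Mcpt1 (3.83 ± 0.71) and Mcpt2 (4.00 ± 0.64) were the 2 that passed. The part of these cells in the change of Il1rl1 was not tested.

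Marker lists of other resident and recruited cell types were read against the 24.2% of all genes that passed in short OVA, a share that the airway and fibroblast counts below come near. Monocyte, macrophage and dendritic cell markers rose for 8 of 13 in short OVA, with C1qb at 2.86 ± 0.22 and Ccr2 at 1.89 ± 0.16. In long OVA these markers rose for 5 of 13, where 1.18% of all genes passed and 1.03% were higher. Their sum, at 3911 to 4504 FPKM in short OVA, was not above the 4055 to 5081 FPKM of short PBS, while in long OVA it was 4803 to 5681 FPKM, against 3580 to 3886 FPKM in long PBS. Endothelial markers fell for 4 of 8 in short OVA (Tek at -0.98 ± 0.14), with a sum of 1318 to 1586 FPKM, against 1608 to 2013 FPKM in short PBS. Their median difference was -0.38 in short OVA and -0.39 in short MCh, where 0 of 8 passed and the sum was 1300 to 1751 FPKM. Alveolar type 1 markers fell for 4 of 7 (Clic5 at -0.77 ± 0.13), summing to 1545 to 1847 FPKM, against 1900 to 2452 FPKM in short PBS. Fibroblast markers, another known source of IL-33, fell for 3 of 10 (Npnt at -0.62 ± 0.12), summing to 2133 to 2602 FPKM, against 3029 to 3304 FPKM in short PBS. Airway basal, club and ciliated cell markers fell for 2 of 10 (Cyp2f2 at -1.28 ± 0.15), summing to 34637 to 47017 FPKM, against 41951 to 50119 FPKM in short PBS. In long OVA the type 1 marker Cav1 was the only gene of these last 4 lists to pass (-0.55 ± 0.12, limma adjusted p = 0.0241), with the type 1 sum at 1421 to 1965 FPKM in OVA, against 2030 to 2308 FPKM in PBS. The part of any of these cells in the changes of the alarmin genes was not tested. Of 150 tested genes of the lists, 0 passed between MCh and PBS in either protocol by limma, 16 in the short and 25 in the long protocol at an unadjusted p under 0.05.

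Over the 22 libraries, the genes whose log2 values went most closely with each member, of 12768 with a mean of at least 1 FPKM, are given as a description, since the libraries share groups and depth. For Il33 they were the chemokine gene Ccl8 (Pearson r = 0.976), Slc5a1 (0.971) and Lilr4b (0.970). Ccl8 averaged 205 FPKM in short OVA, 0.615 FPKM in short PBS, 42.0 FPKM in long OVA and 2.42 FPKM in long PBS. For Il1rl1 they included Msx3 (0.962) and Serpina3n (0.958). Serpina3n averaged 380 FPKM in short OVA, 28.4 FPKM in short PBS, 91.8 FPKM in long OVA and 40.0 FPKM in long PBS. For Tslp they were Gtdc1 (0.936), Fiz1 (0.926) and Klhl25 (0.909), which, like Tslp, averaged highest in short MCh and lowest in long MCh. For Crlf2 the closest were Trpv2 (0.836), Ralb (0.826) and Olfml3 (0.823), and for Il17rb Ccdc69 (0.862), Fgl2 (0.834) and Aldh1a3 (0.832).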

How the data were processed

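RNA was measured in 22 lung libraries. Total RNA came from an RNeasy extraction with DNase I and went into a TruSeq Stranded Total RNA library, per the labels' protocols. STAR, Trim Galore and DESeq2 are named, with build mm10, per the submitters' processing notes. The authors deposited FPKM for 20938 genes and 36844 transcripts. The program behind them, its annotation and its strand setting are unknown here (not given in the sources used here), so reads of overlapping or antisense genes may be mixed. Pseudocount, filter, fit and the call at adjusted p under 0.05 were set on log2 values computed from the deposited FPKM: limma 3.58.1 (R 4.3.3), 0.5 added, 1 coefficient per group, eBayes with trend, 9 contrasts, Benjamini-Hochberg over all 15682 genes or 26492 transcripts. Ratios of 2 transcripts were compared by exact permutation (Python 3.11.15). Both scripts were tested on simulated data. Members, lists and the alternatives were chosen with earlier results of these data known. Named are the members, up to 4 genes of smallest p per list and comparison, and the 3 genes most like each member; some items under this rule are not reported here. Il1rap, Il7r, Il17ra, Gata3, Pou2f3, Trpm5, Chat, Sftpc and Il1r1 fall outside that rule and were named after their values were seen, as partner chains, as genes that define a cell type or, for Il1r1, to complete a short count. Positions come from GENCODE M21. Columns of long MCh and long OVA (8 libraries) carry no replicate number of the labels, while 14 libraries do. The labels call replicates biological but name no animals, so p-values measure the spread between libraries. No 2 libraries had identical values. Groups hold 3 or 4 libraries, which limits precision.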

Additional observations from a re-analysis of the deposited data

Results flagged for a closer look

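In 4 of 21 groups of 4 libraries 1 library stood far from the others, where chance gives about 1 in 20. Il33 was at 308 FPKM in long OVA library a, against 238 to 246 FPKM in the other 3, and at 113 FPKM in the sparse long MCh library a, against 68.0 to 73.3 FPKM. Il1rl1 was at 3.03 FPKM in long OVA library b, against 5.36 to 5.66 FPKM. Il25 was at 0.0165 FPKM in short MCh library 2 and at 0 in the other 3, a gap of about 1 fragment. A lone value beside zeros always meets this rule, so the rate of 1 in 20 does not apply to that flag. The OVA difference of Il1rl1 was smaller in the long protocol than in the short one by a tested interaction of -1.48 ± 0.31 (limma adjusted p = 0.0152).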

How the results depend on the processing

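The rises of Il33 in both OVA comparisons with PBS and in both with MCh, and that of Il1rl1 in short OVA against PBS and against MCh, kept their direction and passed under every alternative run. Members that passed in long OVA against PBS numbered 2 in place of 1 with array weights and with the low-weight libraries dropped, and 1 to 2 with each library left out (2 without long OVA library b). More genes of any kind passed there too. They were 2047 of 15682 with array weights and 1222 of 15629 with the low-weight libraries dropped, against 185 of 15682 with the main settings. For the interaction of OVA with protocol, 3 in place of 1 passed with array weights, with the low-weight libraries dropped and with the compared groups fitted by themselves, 2 without the 3 sparse libraries, and 0 to 2 with each library left out (0 without short PBS library 1 or long PBS library 1, 2 without long OVA library a). Of all genes, 4893 of 15682 passed that interaction with array weights and 4810 of 15629 with the low-weight libraries dropped. Without the sparse libraries 1036 of 15645 did, against 295 of 15682 with the main settings. For short OVA against PBS the count was 2 to 4 over all alternatives, against 3. Of all genes, 7994 of 15682 passed there with array weights, against 3790 of 15682 with the main settings. For short OVA against MCh 5 in place of 3 passed with array weights and with the low-weight libraries dropped, 4 without the sparse libraries, 2 with a pseudocount of 0.1, no filter, median-of-ratios scaling or the length trend removed, and 2 to 3 with each library left out. Of all genes, 8984 of 15682 passed there with array weights and 7735 of 15629 with the low-weight libraries dropped. Without the sparse libraries 3942 of 15645 did, against 2381 of 15682 with the main settings. For long OVA against MCh 1 in place of 2 passed with quantile normalization, with the length trend removed and with the compared groups fitted by themselves, and 1 to 2 with each library left out (1 without long OVA library a, c or d). The Il1rl1 form ratio (OVA over PBS) was 0.28 to 0.50 with each library left out with an unadjusted exact permutation p of 0.0329 without long OVA library b (0.50). The cause of these shifts was not tested. Of 986 member values under alternatives, 863 stayed on their side, 26 newly passed, 30 no longer passed and 67 changed sign, none of the 67 having passed on either side. Sign changes were as follows. With array weights, MCh over PBS in the long protocol became -0.043 for Il33, 0.35 for Tslp and 0.039 for Il17rb, the MCh interaction -0.22 for Il1rl1 and 0.031 for Il17rb, and OVA over MCh in the long protocol -0.41 for Tslp. Without the 3 sparse libraries, MCh over PBS became -0.056 for Il17rb (short), -0.035 for Il33, 0.40 for Tslp and 0.013 for Il17rb (long), the MCh interaction -0.0947 for Il1rl1, -0.21 for Crlf2 and 0.068 for Il17rb, and long OVA over MCh -0.50 for Tslp. With the low-weight libraries dropped these were -0.0091, -0.035, 0.40, 0.013, -0.23, -0.014, 0.022 and -0.50 in the same order. With the length trend removed, MCh over PBS became 3.29e-06 for Il1rl1 and -0.0195 for Crlf2 (short), 0.058 for Il1rl1 and 0.14 for Il17rb (long), and the interaction 0.077 for Il33 and 0.079 for Il17rb. With quantile normalization, MCh over PBS in the long protocol became 0.16 for Il1rl1 and 0.45 for Il17rb, the interaction 0.37 for Il17rb, and long OVA over MCh -0.058 for Tslp and -0.32 for Il17rb. Median-of-ratios scaling gave 0.025 for Il17rb (long MCh over PBS) and 0.017 for Il33 (interaction), a pseudocount of 1 gave 0.00256 for Il17rb (long MCh over PBS), and sums of transcripts -0.049 for Il1rl1 (interaction). A pseudocount of 0.1 gave form ratios of -0.017 for Il1rl1 and -0.0885 for Crlf2 (OVA over PBS). With each library left out, OVA over PBS ran from -0.0088 to 0.12 for Crlf2 (long) and its interaction from -0.036 to 0.19 for Tslp. MCh over PBS ran from -0.10 to 0.27 for Crlf2 and -0.056 to 0.12 for Il17rb (short), and from -0.057 to 0.19 for Il33, -0.25 to 0.064 for Il1rl1, -0.86 to 0.052 for Tslp and -0.098 to 0.10 for Il17rb (long). Its interaction ran from -0.23 to 0.0596 for Il33, -0.1 to 0.22 for Il1rl1, -0.031 to 0.34 for Crlf2 and -0.15 to 0.053 for Il17rb. Long OVA over MCh ran from -0.16 to 0.76 for Tslp, long over short PBS from -0.043 to 0.27 for Il1rl1 and -0.035 to 0.013 for Il17rb, and form ratios from -0.066 to 0.23 (Il1rl1, MCh over PBS) and -0.50 to 0.50 (Crlf2, OVA over PBS). The replicate numbers of the labels gave no sign of a pairing. Same-numbered libraries of different groups deviated from their group means with a correlation of -0.27 to 0.36 over 19 pairs, 3 of them over 0.1. Differently numbered libraries gave -0.33 to 0.41 over 54 pairs, 15 of them over 0.1. With groups of 3 or 4 libraries these values cannot exclude a pairing. The block for replicate number, over the 14 numbered libraries, turned Crlf2 in short MCh over PBS to -0.018; members that passed with it numbered 2 in short OVA against PBS, where Crlf2 no longer did, and 3 in short OVA against MCh, where Crlf2 no longer did (adjusted p = 0.0604) and Tslp did (0.00612).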
